A study of Homo sapiens with 6 samples.

Results

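The BCL2 family of apoptosis regulators was examined in RNA-seq of ovarian cancer cells with and without acquired resistance to the CHK1 inhibitor prexasertib (Prex). Its 10 members were chosen by gene symbol as a family, and all 10 were among the 12308 genes listed. They comprised the anti-apoptotic genes BCL2, BCL2L1 and MCL1, the effector genes BAX and BAK1, and the BH3-only genes BID, BBC3, PMAIP1, BIK and BCL2L11.

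OVCAR5 is an established human ovarian cancer cell line that the study describes as wild-type for BRCA and as p53 null. Total RNA was sequenced from 3 cultures of it. OVCAR5R was derived from OVCAR5 by raising the Prex concentration stepwise to 3 µM, was then kept in 2 µM Prex, and was grown without the drug for at least 4 days before use. It was also represented by 3 cultures. By that description both lines share this background, and the labels name no transgene in either. OVCAR5R is a single derived line, so that every p-value below measures the spread between cultures and not between independent selections.

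Proteins of the BCL2 family decide whether the outer mitochondrial membrane is opened and the caspase cascade begins. The effectors BAX and BAK1 form the pore, the anti-apoptotic proteins hold them and the BH3-only proteins in check, and the BH3-only proteins report stress by binding to both with a short helix, the BH3 domain. Drugs that occupy the BH3 groove of BCL2, BCL-XL (the product of BCL2L1) or MCL1 act on this contact, and tumour cells, ovarian ones included, differ in which of the anti-apoptotic proteins they depend on.

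The BH3 core is the stretch that all 10 members share, and it was located in the annotated coding sequence of each (GENCODE 29, GRCh38). The search was for a leucine, any 3 residues, a glycine or alanine, an aspartate, any residue, and a phenylalanine, leucine, methionine, isoleucine or valine. Each member held exactly 1 match. The pattern was written to describe the BH3 core, so that these matches are not a finding about the family. Of 11572 coding sequences of listed genes, 10.0% held at least 1 match. The 30 coding bases from the codon before the leucine onwards are printed 5′ to 3′, with capitals marking the adjacent codons of the glycine or alanine and the aspartate. A match is a description of letters. The anti-apoptotic members come first, the effectors next, and the BH3-only members last:
BCL2 (chr18:63318352-63318381, minus strand, exon 2 of 3): accctccgccaggccGGCGACgacttctcc
BCL2L1 (chr20:31721925-31721954, minus strand, exon 2 of 3): gcgctgagggaggcaGGCGACgagtttgaa
MCL1 (chr1:150578868-150578897, minus strand, exon 1 of 3): accttacgacgggttGGGGATggcgtgcag
BAX (chr19:48955784-48955813, plus strand, exon 3 of 6): tgtctcaagcgcatcGGGGACgaactggac
BAK1 (chr6:33575390-33575419, minus strand, exon 4 of 6): cagctcgccatcatcGGGGACgacatcaac
BID (chr22:17739418-17739447, minus strand, exon 4 of 6): cacctcgcccaggtcGGGGACagcatggac
BBC3 (chr19:47226582-47226611, minus strand, exon 3 of 4): cagctgcggcggatgGCGGACgacctcaac
PMAIP1 (chr18:59902670-59902699, plus strand, exon 2 of 2): caactcaggagatttGGAGACaaactgaac
BIK (chr22:43127713-43127742, plus strand, exon 3 of 5): cggctggcctgcatcGGGGACgagatggac
BCL2L11 (chr2:111150100-111150129, plus strand, exon 4 of 5): gagttgcggcgtattGGAGACgagtttaac

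BAK1 and BIK were the most alike over these bases, with 23 of 30 identical, and MCL1 and BAK1 the least, with 11 of 30. At 21 identical bases followed BAK1 with BID and BAX with BIK, which cross the classes, and BBC3 with BCL2L11, both BH3-only. No 2 of the 10 stretches were identical.

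The deposited values were normalized and on a linear scale. The step taken as 1 read was the largest of which a library's low values were multiples with up to 2 decimals. That step gave an estimated 35.8 to 41.3 M reads in OVCAR5 libraries and 50.3 to 55.1 M in OVCAR5R libraries. Every OVCAR5R library was thus deeper by this estimate. OVCAR5 replicate 2 stood apart from the other 5 libraries. Its EPCAM value was 597 against 11.9 to 31.7 elsewhere, its KRT19 value 1341 against 3.09 to 10.7, and the sum of the 7 listed epithelial and Mullerian markers (of 10) was 16856 against 2265 to 4721. In that list the log2 fold changes ran from -3.42 for KRT19 to 1.31 for KRT7. Without that library they were -1.12 for KRT19 and 2.44 for KRT7, which then passed the threshold (adjusted p = 0.0185 in limma, 0.0185 to 0.853 over the alternatives), and EPCAM turned from -1.17 to 0.61. KRT7 was 0.72 without OVCAR5 replicate 1 and 0.78 without OVCAR5 replicate 3. CDH1, MUC16 and ESR1 were not listed. PAX8 was at 8.38 to 11.4 in OVCAR5 and at 4.38 to 5.66 in OVCAR5R. Its log2 fold change was -0.86 (adjusted p = 0.315 in limma), and -0.76 without OVCAR5 replicate 2. WT1, near the floor and not tested, was at 0.029 to 0.073 in OVCAR5 and at 0.380 to 0.727 in OVCAR5R. Of 9 fibroblast and endothelial markers 2 were listed, with summed values of 1.77 to 15.4 in OVCAR5 and 6.95 to 9.99 in OVCAR5R, and COL1A1, the only one tested, had a log2 fold change of 0.49, which was -0.17 without OVCAR5 replicate 3, 0.32 without OVCAR5R replicate 1 and 1.25 without OVCAR5 replicate 2. Of 8 immune markers 2 were listed, with sums of 56.5 to 71.8 and 74.4 to 76.1, and log2 fold changes of -1.33 for CD14 (-0.84 without OVCAR5 replicate 2) and 0.51 for CD68. In bulk RNA, fewer cells of a type and less RNA per cell cannot be told apart. The log2 fold change of each member is also given without OVCAR5 replicate 2. The part of this library's keratin-rich profile in the members' values was not tested beyond that.

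The first question was whether any member differed between the resistant line and its parent. None of the 10 passed an adjusted p under 0.05 (limma on log2(value + 1), Benjamini-Hochberg over 11766 genes), where 14 genes, 0.119% of those tested, did. The lowest adjusted p among the members was 0.335, for BID. At an unadjusted limma p under 0.05 there were 4 members, BCL2L1, BID, PMAIP1 and BIK, beside 10.4% of all genes tested. Without OVCAR5 replicate 2 only BID was left under that threshold, and without OVCAR5R replicate 3 it was again only BID. Without OVCAR5R replicate 1 or OVCAR5R replicate 2 there were 2 such members, BID among them in both. All 3 OVCAR5R libraries were above all 3 OVCAR5 libraries for 1 member (PMAIP1), beside 8.4% of all genes, and below them for 1 member (BID), beside 8.18%. The same 2 members did not overlap without OVCAR5 replicate 2, where 27.4% of all genes did not. The median log2 fold change of the 10 members was -0.19 (-0.03 without OVCAR5 replicate 2), and that of all genes tested was -0.01.

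**Figure D1:**
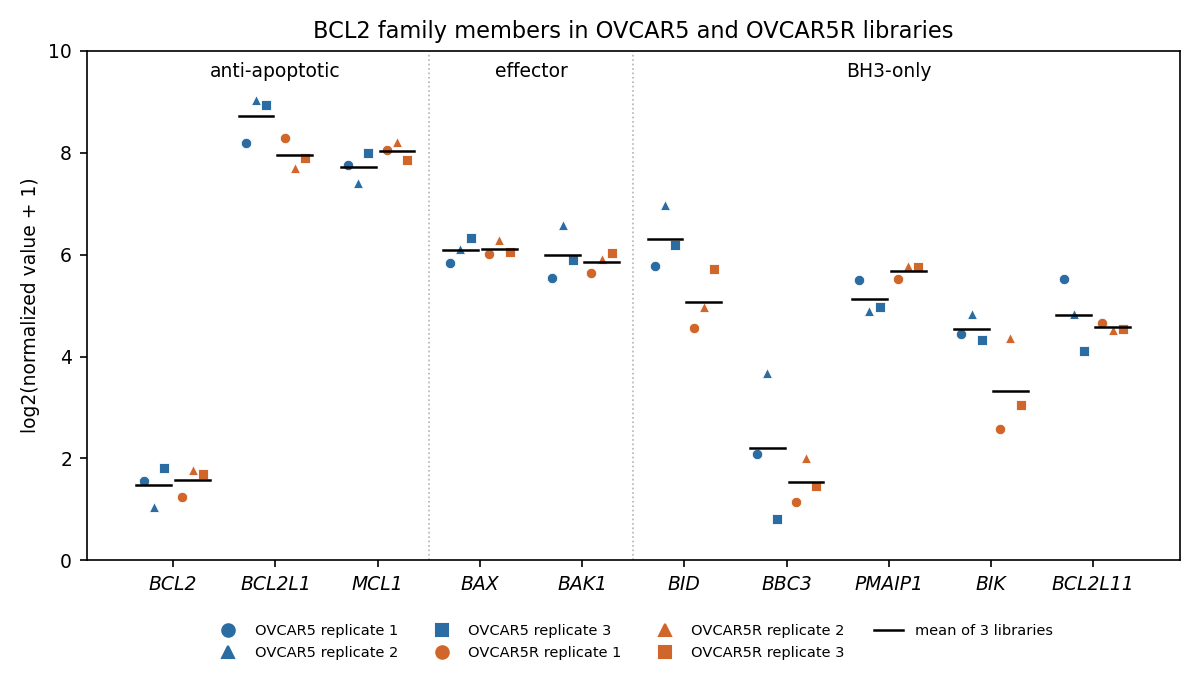
Normalized value of each member on the log2(value + 1) scale in every library, with OVCAR5 in blue, OVCAR5R in orange, 1 symbol per replicate number and a black bar at the mean of the 3 libraries of a line. BID lies lower in all 3 OVCAR5R libraries and PMAIP1 higher, while the points of the other 8 members overlap between the lines.

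Among the anti-apoptotic members, BCL2L1, which encodes BCL-XL, had normalized values of 292, 525 and 487 in OVCAR5 replicates 1 to 3 and of 311, 207 and 238 in OVCAR5R. OVCAR5 replicate 1 lay below OVCAR5R replicate 1, so that the lines overlapped, although the other OVCAR5 libraries were well above all OVCAR5R libraries. The means were 435 ± 125 and 252 ± 53.5 (SD, n = 3 each). The log2 fold change was -0.76 (SE 0.28, 95% interval -1.41 to -0.11, adjusted p = 0.416 in limma), and it was -0.60 without OVCAR5 replicate 2 and -1.02 without OVCAR5 replicate 1. Over 13 alternative settings the adjusted p ranged from 0.401 to 0.709. ABALON, an antisense transcript annotated within BCL2L1, was listed at 12.0, 11.0 and 15.8 in OVCAR5 and at 9.13, 5.76 and 10.6 in OVCAR5R. Whether reads were counted by strand is not given in the sources used here, so that reads of this pair cannot be told apart where they overlap. The BCL2L1 value was 22.5 to 47.9 times the ABALON value in every library.

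MCL1, a short-lived anti-apoptotic protein, had values of 216, 170 and 254 in OVCAR5 and of 263, 295 and 230 in OVCAR5R. The means of 213 ± 42.4 and 263 ± 32.4 (SD, n = 3 each) lay in the opposite order to those of BCL2L1, but the lines overlapped through OVCAR5R replicate 3. Its log2 fold change was 0.31 (SE 0.22, 95% interval -0.20 to 0.82, adjusted p = 0.655 in limma), and 0.15 without OVCAR5 replicate 2.

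BCL2, the founding member of the family, was barely detected. It had values of 1.95, 1.07 and 2.51 in OVCAR5 and of 1.38, 2.43 and 2.24 in OVCAR5R, which correspond to an estimated 37 to 134 reads per library. No difference was detectable at this depth (log2 fold change 0.10, 95% interval -0.75 to 0.94, adjusted p = 0.951 in limma), and the sign turned to -0.11 without OVCAR5 replicate 2.

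The balance of MCL1 and BCL2L1 was compared per kilobase of merged exon, since values of different genes cannot be set side by side otherwise. This ratio was chosen after the values were seen and is given without a test. MCL1 per kb was 0.562, 0.245 and 0.395 of BCL2L1 per kb in OVCAR5 and 0.641, 1.08 and 0.732 in OVCAR5R. All OVCAR5R libraries lay above all OVCAR5 libraries, with means of 0.818 ± 0.231 and 0.401 ± 0.159 (SD, n = 3 each). Of the summed level per kb of BCL2, BCL2L1 and MCL1, BCL2L1 made up 71.9% ± 8.19 in OVCAR5 (SD, n = 3). In OVCAR5R it made up 55.5% ± 6.70 (SD, n = 3). These shares ran from 63.9% to 80.3% in OVCAR5 and from 48.0% to 60.9% in OVCAR5R. MCL1 supplied almost all of the rest of this sum, at 28.0% ± 8.15 and 44.4% ± 6.66. The anti-apoptotic BCL2L2, not among the members, is not in this sum, and including it would lower the shares. BCL2L2 had mean values of 77.8 in OVCAR5 and 72.6 in OVCAR5R over 4.189 kb of merged exon. The shares were not planned and are given without a test.

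The effectors had the narrowest range of log2 fold changes between the lines among the classes. With 2 members they are also the smallest class, and a range tends to grow with the number of genes. BAX, which moves from the cytosol into the mitochondrial membrane when activated, had values of 55.8, 67.9 and 79.1 in OVCAR5 and of 63.6, 77.3 and 65.2 in OVCAR5R. Every OVCAR5R library fell inside the OVCAR5 range. The log2 fold change was 0.03 (SE 0.21, 95% interval -0.45 to 0.52, adjusted p = 0.972 in limma), was 0.04 without OVCAR5 replicate 2, and its sign turned when OVCAR5 replicate 1 (-0.10) or OVCAR5R replicate 2 (-0.05) was left out. BAK1, which resides in that membrane, had values of 45.4, 94.4 and 58.4 in OVCAR5 and of 48.9, 59.6 and 64.1 in OVCAR5R. OVCAR5 replicate 2 was the high library, and the log2 fold change of -0.14 (SE 0.29, 95% interval -0.80 to 0.52, adjusted p = 0.902 in limma) became 0.15 without it.

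The BH3-only members, at 5 the largest class, had the widest range of log2 fold changes. BID, which is cleaved by caspase-8 and carries the death receptor signal to mitochondria, had values of 53.8, 125 and 72.0 in OVCAR5 and of 22.6, 30.2 and 51.6 in OVCAR5R. The highest OVCAR5R library, replicate 3, came close to the lowest OVCAR5 library, but the lines did not overlap. The means were 83.6 ± 37.0 and 34.8 ± 15.0 (SD, n = 3 each). The log2 fold change was -1.24 (SE 0.39, 95% interval -2.13 to -0.34), with an unadjusted p of 0.0127 and an adjusted p of 0.335 in limma. An exact two-sided permutation test gave p = 0.1, the smallest that 3 against 3 libraries allow. Without OVCAR5 replicate 2 the log2 fold change was -0.90, and over the 13 alternatives it ran from -1.55 to -0.90 with adjusted p from 0.283 to 0.619.

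PMAIP1, which encodes NOXA, a BH3-only protein that binds MCL1 preferentially, showed the opposite order. It had values of 44.4, 28.8 and 30.4 in OVCAR5 and of 45.0, 53.8 and 52.8 in OVCAR5R. The lines nearly met, since OVCAR5 replicate 1 and OVCAR5R replicate 1 were almost equal. The means were 34.6 ± 8.59 and 50.5 ± 4.83 (SD, n = 3 each), and the log2 fold change was 0.56 (SE 0.23, 95% interval 0.03 to 1.09, adjusted p = 0.457 in limma). It was 0.44 without OVCAR5 replicate 2, and the exact permutation p was 0.1. Of the summed level per kb of the 5 BH3-only members, PMAIP1 supplied 24.9% ± 7.91 in OVCAR5 and 50.8% ± 7.54 in OVCAR5R. BID supplied 28.9% ± 8.40 and 17.3% ± 6.68 (SD, n = 3 each). BAD and BMF, BH3-only genes outside the members, are not in this sum. BAD had mean values of 47.5 in OVCAR5 and 60.7 in OVCAR5R over 1.708 kb of merged exon. For PMAIP1 these were 34.6 and 50.5 over 2.235 kb. With BAD included, the shares would be lower. The PMAIP1 shares of the libraries did not overlap, at 16.6% to 32.3% and 43.3% to 58.4%, whereas the BID shares did. BIK per kb had a mean of 23.6 in OVCAR5 and 11.1 in OVCAR5R, and the BH3-only sum a mean of 63.9 and 45.6. The PMAIP1 share was thus higher in OVCAR5R in part through the lower sum. These shares were not planned, and no test or background over all genes was made for them.

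BIK, a BH3-only protein that resides at the endoplasmic reticulum, had values of 20.9, 27.6 and 18.9 in OVCAR5 and of 4.98, 19.5 and 7.23 in OVCAR5R. OVCAR5R replicate 2 reached the parental range, so that the lines overlapped, while replicates 1 and 3 were far below it. The means were 22.5 ± 4.57 and 10.6 ± 7.81 (SD, n = 3 each), and the log2 fold change was -1.21 (SE 0.44, 95% interval -2.23 to -0.19, adjusted p = 0.401 in limma). It was -1.06 without OVCAR5 replicate 2 and ran from -1.73 (without OVCAR5R replicate 2) to -0.84 (without OVCAR5R replicate 1) when 1 library was left out.

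BCL2L11 encodes BIM, which binds all anti-apoptotic proteins. It had values of 44.7, 27.5 and 16.3 in OVCAR5 and of 24.4, 21.8 and 22.2 in OVCAR5R. The OVCAR5R libraries were close together and lay inside the wide OVCAR5 range (log2 fold change -0.25, 95% interval -1.04 to 0.54, adjusted p = 0.837 in limma). It was -0.24 without OVCAR5 replicate 2, and turned to 0.10 without OVCAR5 replicate 1. MIR4435-2HG, annotated on the opposite strand across BCL2L11, was listed at 63.0 to 100.4 in OVCAR5 and at 84.0 to 121 in OVCAR5R, above BCL2L11 in every library, so that the BCL2L11 value is uncertain where strand was not used.

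BBC3 encodes PUMA, which likewise binds the whole anti-apoptotic class. It had values of 3.24, 11.9 and 0.760 in OVCAR5 and of 1.21, 3.00 and 1.75 in OVCAR5R, an estimated 30 to 410 reads. The OVCAR5 libraries spanned the OVCAR5R range on both sides, and OVCAR5 replicate 2 held the highest value. The log2 fold change of -0.66 (95% interval -2.22 to 0.90, adjusted p = 0.772 in limma) became 0.085 without that library and -1.35 without OVCAR5 replicate 3.

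**Figure D2:**
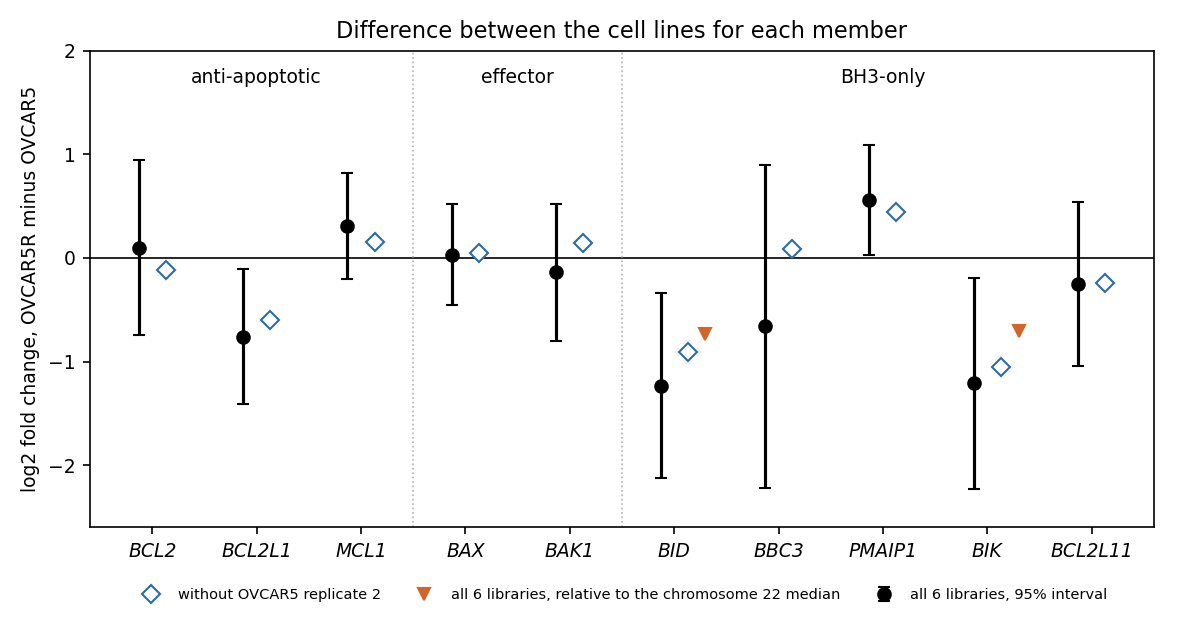
Log2 fold change of each member (OVCAR5R minus OVCAR5, on the log2(value + 1) scale) with its 95% interval from limma over all 6 libraries (black), without OVCAR5 replicate 2 (open diamonds) and, for BID and BIK, relative to the median of chromosome 22 genes (orange triangles). The intervals of BCL2L1, BID, PMAIP1 and BIK do not include 0, but no member passed the adjusted threshold, and the points of BCL2, BAK1 and BBC3 change sign without OVCAR5 replicate 2.

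By class, 2 of 3 anti-apoptotic members had a higher mean log2 value in OVCAR5R, 1 of 2 effectors, and 1 of 5 BH3-only members. The median log2 fold changes were 0.10, -0.05 and -0.66, beside -0.01 over all genes tested. Without OVCAR5 replicate 2 they were -0.11, 0.10 and -0.24, so that the anti-apoptotic and effector medians turned sign and the BH3-only median was closer to 0. With equal library sums the effector median was 0.012, so that its sign also depended on the scaling. The mean log2(value + 1) of the 5 BH3-only members was 4.67, 5.05 and 4.08 in OVCAR5 and 3.69, 4.32 and 4.10 in OVCAR5R. OVCAR5 replicate 3 was below OVCAR5R replicates 2 and 3 in this mean, so that the lines overlapped. The corresponding means of the anti-apoptotic class were 5.84, 5.83 and 6.25 against 5.86, 5.89 and 5.82, and those of the effectors 5.68, 6.34 and 6.11 against 5.83, 6.11 and 6.04. Neither class separated the lines.

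Class sums were also compared, and they hold the members only, without BCL2L2, BOK, BAD or BMF. Set against each other, the summed anti-apoptotic level per kb was 2.24, 2.53 and 3.92 times the summed BH3-only level in OVCAR5. In OVCAR5R it was 4.47, 2.34 and 2.67 times. The highest and the second highest of these ratios came from different lines, and the means of 2.90 ± 0.901 and 3.16 ± 1.15 (SD, n = 3 each) differed by less than the spread. The ratio of summed anti-apoptotic to effector level per kb was 3.25 ± 0.372 in OVCAR5 and 2.63 ± 0.581 in OVCAR5R, again with overlapping libraries (2.86 to 3.61 and 2.29 to 3.30).

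Levels of the members were next ordered within each line per kilobase of merged exon. In OVCAR5 the mean normalized value per kb was 131 for BCL2L1, 48.8 for MCL1, 29.9 for BAK1, 26.1 for BAX, 23.6 for BIK, 18.8 for BID, 15.5 for PMAIP1, 4.43 for BCL2L11, 1.66 for BBC3 and 0.157 for BCL2. Only 3 neighbouring pairs in that order were separated in their libraries, namely BCL2L1 from MCL1, PMAIP1 from BCL2L11 and BBC3 from BCL2. In OVCAR5R the order was BCL2L1 at 76.0, MCL1 at 60.1, BAX at 26.6, BAK1 at 26.0, PMAIP1 at 22.6, BIK at 11.1, BID at 7.82, BCL2L11 at 3.42, BBC3 at 0.625 and BCL2 at 0.171. There MCL1 was separated from BAX, BID from BCL2L11, BCL2L11 from BBC3, and BBC3 from BCL2, but BCL2L1 and MCL1 overlapped. The step between the most abundant anti-apoptotic transcripts was thus clear of the library spread in the parent and within it in OVCAR5R. PMAIP1 stood at rank 7 in OVCAR5 and at rank 5 in OVCAR5R, and BIK and BID each stood 1 place lower in OVCAR5R. With the longest transcript in place of the merged exons, BAX moved ahead of BAK1 and BID ahead of both BAK1 and BIK in OVCAR5, and BID ahead of BIK in OVCAR5R.

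**Figure D3:**
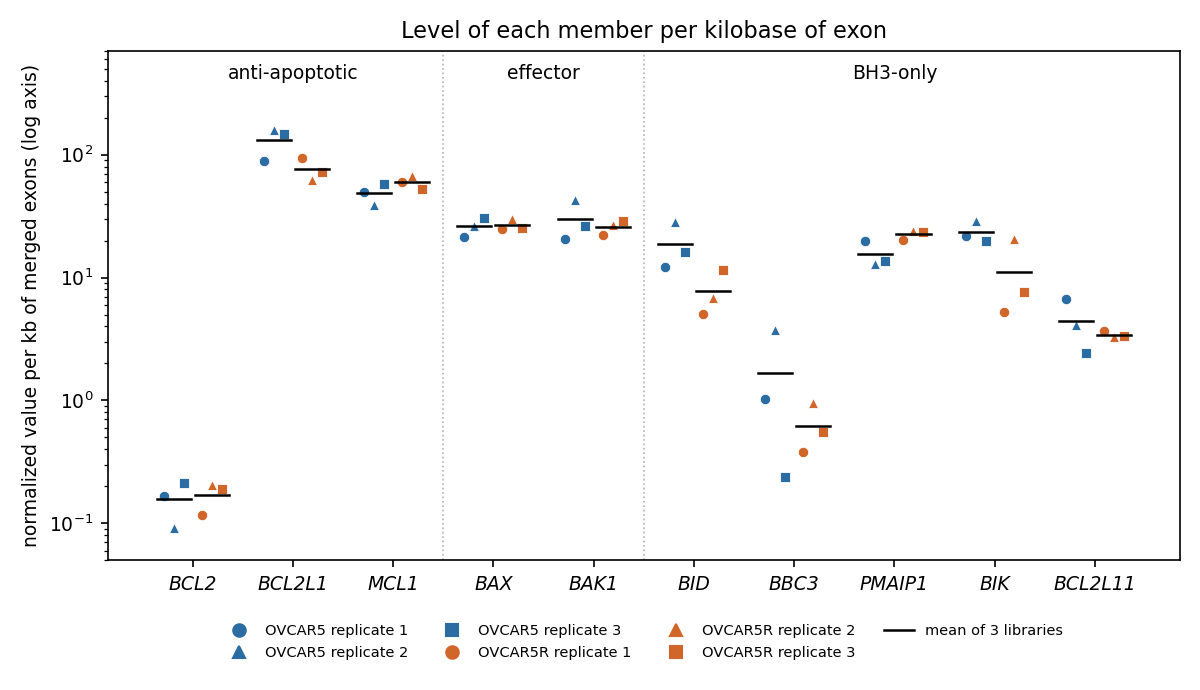
Normalized value per kilobase of merged exon for each member (logarithmic axis) in every library, with colours and symbols for line and replicate and a black bar at the mean of 3 libraries. BCL2L1 and MCL1 have the highest means in both lines, although BAK1 lies above MCL1 in OVCAR5 replicate 2. The effectors lie together at 20.5 to 42.7 per kb, and BCL2 is lowest, at or below 0.213.

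Several members lie on the same chromosome, and the values of the genes around each were therefore set beside it. BCL2 and PMAIP1 are on chromosome 18, BAX and BBC3 on chromosome 19, and BID (17734138 to 17774770) and BIK (43110748 to 43129712) on chromosome 22 of GRCh38. Chromosome 22 had the lowest median log2 fold change of 23 chromosomes, at -0.45, with 247 of its 294 tested genes (84.0%) lower by mean in OVCAR5R, against a median of -0.01 over all genes tested. Within 5 Mb of BID the 59 tested neighbours had a median of -0.39, with 46 lower, and within 5 Mb of BIK the 89 neighbours had a median of -0.54, with 83 lower. The neighbours flanking BID, BCL2L13 and MICAL3, had log2 fold changes of -0.56 (adjusted p = 0.508 in limma) and -0.34 (adjusted p = 0.789).

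The OVCAR5R libraries were not alike on this chromosome. Relative to the OVCAR5 mean, the chromosome 22 median was -0.80 in OVCAR5R replicate 1, -0.60 in replicate 2 and -0.10 in replicate 3, and it was between -0.09 and 0.05 in the OVCAR5 libraries. BID followed the same order, at -1.76, -1.35 and -0.60 in the OVCAR5R libraries, and lay below the chromosome's median in each. BIK did not, at -1.96, -0.18 and -1.49, so that it was above that median in replicate 2 and well below it in replicate 3. In OVCAR5R replicate 3, where the chromosome's median was near that of the parent, BID and BIK were below the OVCAR5 mean. For BID, however, OVCAR5 replicate 1 lay almost as far below that mean, at -0.54. The lowest OVCAR5 library for BIK was replicate 3, at -0.22. With each chromosome 22 gene taken relative to the library's chromosome 22 median, a setting added after the data were seen, the log2 fold change was -0.73 for BID (SE 0.30, adjusted p = 0.463 in limma) and -0.71 for BIK (SE 0.47, adjusted p = 0.639). The value of BID was thus 1.69 times as large without this step, and that of BIK 1.71 times.

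**Figure D4:**
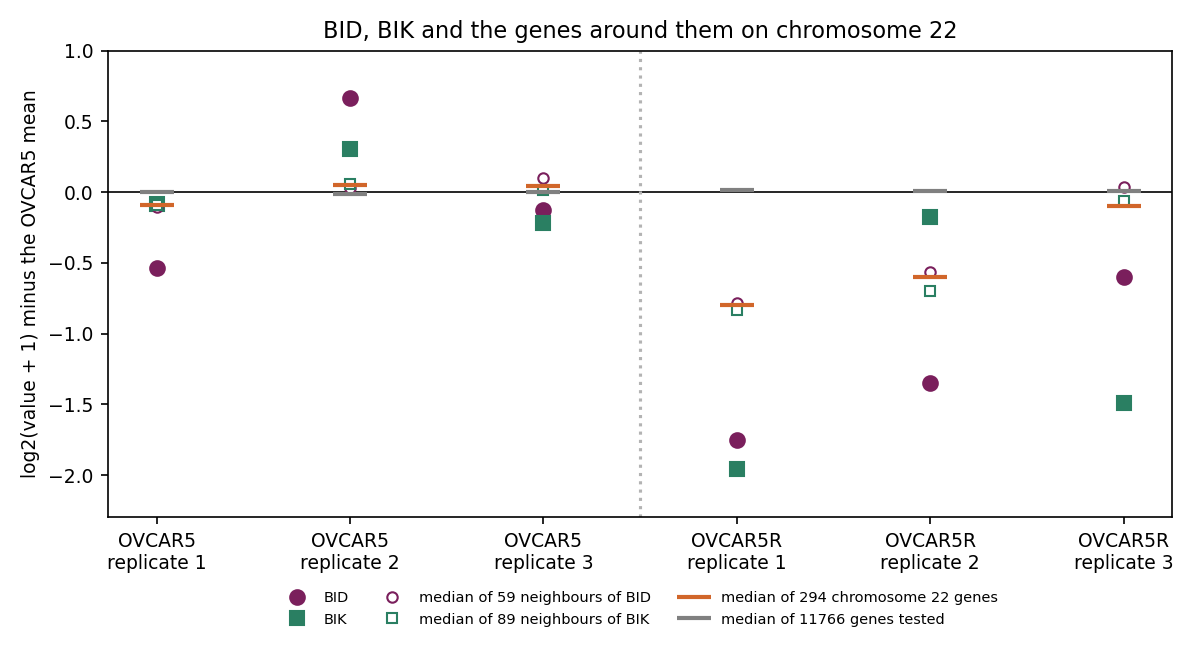
Log2(value + 1) relative to the OVCAR5 mean in each of the 6 libraries for BID and BIK (filled symbols), the medians of their neighbours within 5 Mb (open symbols), and the medians of chromosome 22 genes (orange bars) and of all genes tested (grey bars). The chromosome 22 median is -0.80 and -0.60 in OVCAR5R replicates 1 and 2 but -0.10 in replicate 3, and BID lies below it in all 3.

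The 3 genes whose pattern over the 6 libraries was most like that of BID, by the root mean square difference of centred log2 values, were APOL2 (0.196), CHKB (0.200) and PLXNB2 (0.200), where the median over all genes was 0.850. All 3 are on chromosome 22. APOL2, an apolipoprotein L gene, had values of 66.2, 127 and 75.9 in OVCAR5 and of 18.6, 37.0 and 61.0 in OVCAR5R, with the same order of libraries as BID. CHKB, a choline kinase, and PLXNB2, a semaphorin receptor, had log2 fold changes of -1.12 and -1.22. Since these genes were picked for their likeness to BID, these values are a description.

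The neighbours of the other members had medians nearer 0. The 59 tested neighbours of BCL2L1 on chromosome 20 had a median of 0.06, and BCL2L1 had the third lowest log2 fold change of the 60. The 21 neighbours of PMAIP1 on chromosome 18 had a median of 0.14, with 17 higher, and the 123 neighbours of MCL1 on chromosome 1 a median of 0.10. For BAX, BAK1, BBC3 and BCL2L11 the neighbours' medians were between -0.08 and -0.03. The 16 neighbours of BCL2 had a median of 0.31.

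The remaining family members were read from the same comparison. Of 13 further BCL2 family symbols 8 were listed and 7 tested, and none passed an adjusted p under 0.05. BMF, a BH3-only gene, had the lowest log2 fold change, -1.59 (SE 0.64, adjusted p = 0.449 in limma, and -1.0 without OVCAR5 replicate 1), but its values of 36.6, 10.4 and 9.53 in OVCAR5 overlapped those of 2.43, 11.9 and 2.72 in OVCAR5R. BCL2L12, an atypical member, had the highest, 0.51 (SE 0.23, adjusted p = 0.489 in limma, and 0.34 without OVCAR5 replicate 1), with values of 21.5, 29.5 and 33.1 and of 39.8, 42.9 and 36.9 that did not overlap. BOK, an effector-like member, also did not overlap, at 48.8 to 60.9 and 61.0 to 90.7, although its lines nearly touched. The anti-apoptotic BCL2L2, which shares exons with a readthrough transcript, had a log2 fold change of -0.09 (0.0074 without OVCAR5 replicate 2). BCL2A1, BCL2L10, HRK, BCL2L14 and BCL2L15 were not listed, and BNIP3 was listed at 0.373 to 1.06 and not tested.

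Upstream and downstream of the family, 6 lists held 67 symbols, with 1 gene under both its older and newer name and with the 13 further family symbols included. Of these 57 were listed and 56 tested, and 0 passed an adjusted p under 0.05 in limma. By mean 24 were higher and 32 lower, with a median log2 fold change of -0.05, and of 0.02 without OVCAR5 replicate 2. At an unadjusted p under 0.05 there were 4 (BMF, CASP6, TNFSF10 and ATF4), all lower, a share below the 10.4% of all genes. The lines did not overlap for 3 that were lower (CASP6, TNFSF10 and ATF4), beside 8.18% of all genes, and BOK, BCL2L12, ENDOG and MYC were among those that were higher without overlap, beside 8.4%.

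Downstream, among the 11 tested genes of the apoptosome and caspases, the executioner CASP6 had the lowest log2 fold change, -1.13, with values of 9.55, 15.3 and 6.79 in OVCAR5 and of 4.39, 3.15 and 4.73 in OVCAR5R (adjusted p = 0.317 in limma). DFFA, the inhibitor of the caspase-activated nuclease, had the highest, 0.59, which was 0.31 without OVCAR5 replicate 2 and 0.91 without OVCAR5 replicate 3. The 6 inhibitor of apoptosis genes ran from -0.33 for BIRC6 to 0.31 for BIRC2. BIRC6 was -0.077 without OVCAR5 replicate 1, -0.036 without OVCAR5R replicate 2 and -0.52 without OVCAR5R replicate 1, and BIRC2 was 0.082 without OVCAR5 replicate 2 and 0.50 without OVCAR5 replicate 3, so that single libraries decided the size of both. Upstream, in the death receptor pathway that leads to BID cleavage, TNFSF10, which encodes the ligand TRAIL, had a log2 fold change of -2.07 (SE 0.60, adjusted p = 0.306 in limma), with values of 24.2, 37.4 and 12.3 against 1.96, 12.2 and 3.39. The lines did not overlap, though OVCAR5 replicate 3 and OVCAR5R replicate 2 nearly met. TNFRSF10B, a receptor of TRAIL, stood at the other end of this list with 0.31, which was 0.090 without OVCAR5R replicate 2, 0.48 without OVCAR5 replicate 1 and 0.49 without OVCAR5R replicate 1.

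Among 11 tested regulators of BCL2 family transcription, ATF4, the stress factor that induces PMAIP1 and BBC3, had the lowest log2 fold change, -1.05 (SE 0.37, adjusted p = 0.395 in limma). Its values of 289, 550 and 183 in OVCAR5 were all above those of 131, 159 and 156 in OVCAR5R, and its log2 fold change was -0.63 without OVCAR5 replicate 2. ATF4 is also on chromosome 22, and relative to that chromosome's median, a setting added after the data were seen, its log2 fold change was -0.54 (SE 0.38, adjusted p = 0.656 in limma). JUN had the highest value of that list, 0.39, which was 0.075 without OVCAR5 replicate 2 and 0.74 without OVCAR5 replicate 3. The 10 tested regulators of the proteins' stability or location ran from -0.20 for HUWE1, a ubiquitin ligase of MCL1 (0.11 without OVCAR5 replicate 1, -0.43 without OVCAR5 replicate 2 and -0.11 without OVCAR5R replicate 2), to 0.54 for YWHAZ, a 14-3-3 protein that holds phosphorylated BAD. YWHAZ was 0.26 without OVCAR5 replicate 2 and 0.29 without OVCAR5R replicate 2.

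**Figure D5:**
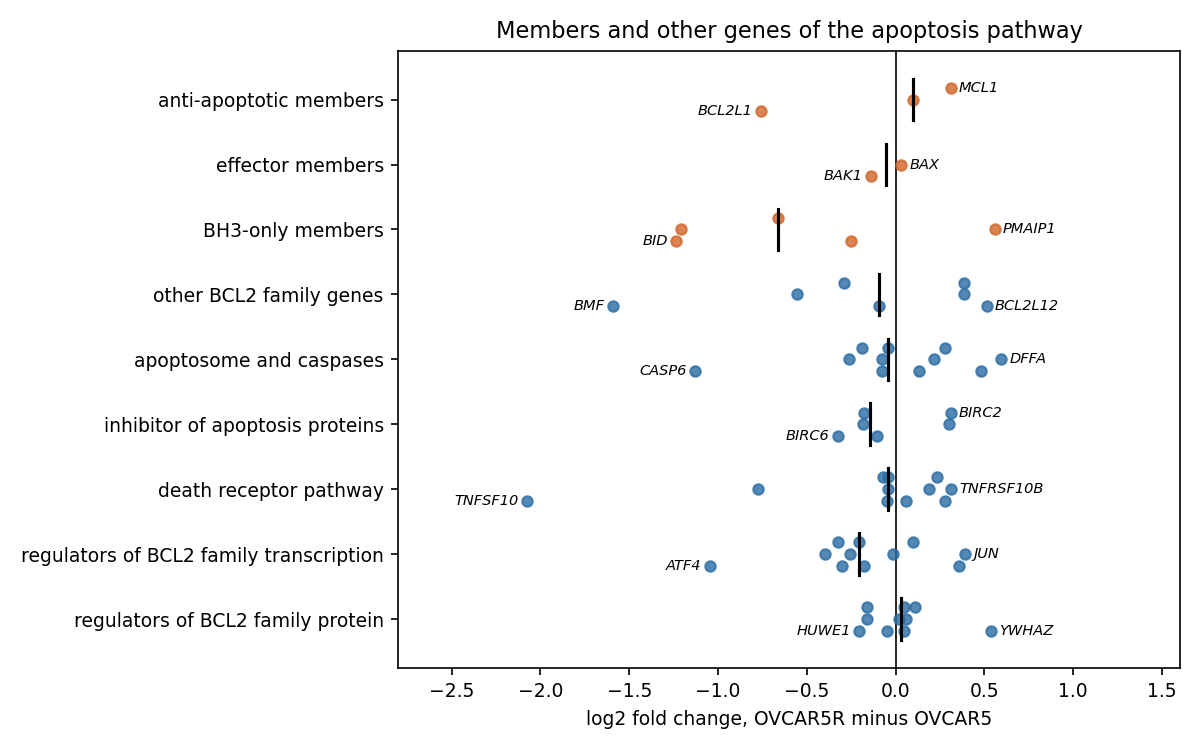
Log2 fold change (OVCAR5R minus OVCAR5) of every tested gene in the 3 classes of members (orange) and in 6 lists of other pathway genes (blue), with a black bar at each list's median and the lowest and highest gene of each list named. The BH3-only members spread from -1.24 to 0.56, and no gene shown passed the adjusted threshold.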

How the data were processed

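Total RNA of 3 OVCAR5 and 3 OVCAR5R cultures was sequenced. The authors deposited 1 table of normalized signal per gene symbol (quartile normalization by the study's methods; hg38 by the submitters' processing notes). Aligner, counter, annotation and strand setting are not given in the sources used here. Of 12309 rows, 1 identical duplicate was dropped. The values are not counts, and read numbers were estimated from the step of each library that was taken as 1 read.

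The 11766 genes that reached a value of 1 in 3 or more libraries entered a limma fit (version 3.58.1, R 4.3.3) on log2(value + 1), with a variance trend and Benjamini-Hochberg adjustment at 0.05. The fit was tested on simulated data. Fold changes on this scale understate those of low genes. Intervals are 95%. Exact permutation tests used SciPy 1.17.1. Positions, exon lengths and coding bases came from GENCODE 29 (GRCh38), which held 99.4% of symbols. Alternatives covered normalization, scaling, filter, pseudocount (0.1), variance trend, replicate block, left-out libraries and transcript length. The members and gene lists were chosen with earlier results of these data known. Beyond the members, the genes named are the lowest and highest of each list, those most like BID, its flanking neighbours, and genes named in the text for a stated reason. Some listed genes are not reported here.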

Additional observations from a re-analysis of the deposited data

How the results depend on the processing

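No member passed an adjusted p under 0.05 in any of the 13 alternatives. The number of all genes that did was 14, and 13 to 17 under the alternatives of normalization, scaling, filter, pseudocount and variance trend. When 1 library was left out it ranged from 0 (without OVCAR5R replicate 3, with 864 genes at an unadjusted limma p under 0.05) to 29 (without OVCAR5 replicate 2), and it was 3 without OVCAR5 replicate 1, 4 without OVCAR5R replicate 1 and 2 without OVCAR5R replicate 2. With the replicate block it was 5, and 2 members were at an unadjusted p under 0.05. Same-numbered libraries had correlations of deviations of -0.004, 0.176 and -0.119. Differently numbered libraries were not compared in this way, so that these values cannot decide whether the numbers mark pairs. With a minimum value of 10 BCL2 is not tested and the anti-apoptotic median becomes -0.23. The BH3-only median ranged from -1.30 (without OVCAR5 replicate 3) to -0.24 (without OVCAR5 replicate 2). With 1 library left out, log2 fold changes that turned sign ranged from -0.11 to 0.27 for BCL2, -0.10 to 0.15 for BAX, -0.37 to 0.15 for BAK1, -1.35 to 0.085 for BBC3, -0.60 to 0.10 for BCL2L11, -0.43 to 0.11 for HUWE1 and -0.17 to 1.25 for COL1A1, and the cause was not tested. No named gene turned sign under another scaling, filter or pseudocount, but the effector median did with equal library sums (0.012), as the anti-apoptotic median did with the stricter minimum. By longest transcript, the values per kb of BCL2, BAX and BID moved by more than their spread. Depth limits BCL2 and BBC3, and 3 cultures of 1 derived line limit all comparisons.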
